A study of Mus musculus with 12 samples.

Results

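Collagen chain genes were taken by symbol, as every gene named Col, a number, the letter a and a further number. The deposited table of fragments scaled to exon length and to the mapped fragments of the library (FPKM) listed 44 of them among 46983 genes. They were sorted by the assembly their chains form into 11 fibrillar chains, 8 of basement membranes (types IV, XV and XVIII), 9 FACIT chains that decorate the surface of fibrils, 6 of type VI, 4 transmembrane chains and 6 others. C2C12 is a myoblast line of the mouse whose cells stop dividing and fuse into myotubes when they differentiate. The 12 libraries fall into 4 groups of 3, WT_0d, WT_5d, PPARγ/+_0d and PPARγ/+_5d. WT denotes wild-type cells of the PB-IP vector group, PPARγ/+ denotes cells that carry the PPARγ coding sequence in this PiggyBac vector, 0d is undifferentiated and 5d is day 5 of differentiation. The cells with the PPARγ vector were selected with puromycin, the copy number and site of the insertion are not given in the sources used here, and the series describes the cells as inducible while the methods describe stable selection. The study calls the libraries biological replicates but does not say that they came from separate cultures, so p-values may measure a partly technical spread.

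Collagens are matrix proteins whose chains wind around each other into long helices rich in glycine and proline. The fibrillar types I, III and V build the tensile fibres of connective tissue and of the sheaths around muscle, type IV forms the network of the basement membrane that covers each muscle fibre, and type VI links that membrane to the fibres outside it. Chains are modified and folded in the endoplasmic reticulum, trimmed and cross-linked outside the cell, and bound by integrins and other receptors. In cultures of a cell line, less RNA per cell and fewer cells that make it cannot be told apart.

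Where 2 members share a start region, the sequence shows how close their transcription begins. The genes of the chains Col4a1 and Col4a2, which assemble with each other into the common form of type IV collagen, lie head to head on chromosome 8 and their annotated first exons overlap by 22 bases, which are given in capitals on the plus strand of GRCm38.p6 (RefSeq) at chr8:11312801-11312830.
Col4a1 and Col4a2: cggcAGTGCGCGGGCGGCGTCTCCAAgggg
The other stretches are the 250 bases upstream of the RefSeq start of 4 members, shown as examples. Col3a1, the most abundant chain on 5d, and Col24a1 rose in both cell types, Col1a2 was high throughout and was called in no comparison, and Col13a1 was detected almost only in WT cells on 5d. Capitals mark every CANNTG, the E-box core that myogenic factors such as MyoD can bind, which reads the same on both strands. Each is printed 5′ to 3′ on the strand of its gene (GRCm38.p6), for Col3a1 at chr1:45311288-45311537 (plus), for Col24a1 at chr3:145292222-145292471 (plus), for Col1a2 at chr6:4505368-4505617 (plus) and for Col13a1 at chr10:61979109-61979358 (minus).
Col3a1: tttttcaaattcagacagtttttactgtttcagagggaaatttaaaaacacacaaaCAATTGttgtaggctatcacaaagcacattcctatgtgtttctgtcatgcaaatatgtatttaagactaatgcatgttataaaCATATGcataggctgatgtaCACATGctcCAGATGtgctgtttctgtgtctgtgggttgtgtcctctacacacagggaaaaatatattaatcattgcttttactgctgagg
Col24a1: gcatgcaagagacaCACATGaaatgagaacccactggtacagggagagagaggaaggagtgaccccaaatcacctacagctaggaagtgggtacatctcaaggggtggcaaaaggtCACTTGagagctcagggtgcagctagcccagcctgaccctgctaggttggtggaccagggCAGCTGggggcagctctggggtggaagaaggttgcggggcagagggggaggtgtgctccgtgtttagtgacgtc
Col1a2: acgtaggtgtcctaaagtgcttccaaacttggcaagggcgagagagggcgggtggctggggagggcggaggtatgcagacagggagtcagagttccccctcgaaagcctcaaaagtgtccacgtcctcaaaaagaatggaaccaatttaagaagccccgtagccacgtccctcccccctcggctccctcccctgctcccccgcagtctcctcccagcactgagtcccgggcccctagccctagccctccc
Col13a1: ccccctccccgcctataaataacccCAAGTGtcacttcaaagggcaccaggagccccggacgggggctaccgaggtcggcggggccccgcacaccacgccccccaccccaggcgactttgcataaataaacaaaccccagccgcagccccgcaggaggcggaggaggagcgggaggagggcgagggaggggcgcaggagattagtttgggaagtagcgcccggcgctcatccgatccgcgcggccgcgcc
These stretches hold 4, 3, 0 and 1 CANNTG matches. Other chains called higher in both cell types had fewer in the same 250 bases than Col3a1 and Col24a1. Col8a2 had 0, and Col15a1, Col23a1, Col27a1 and Col6a1 had 1 each. Col18a1 and Col25a1 had 0. The number of matches therefore did not separate the chains that rose from the others shown. RefSeq promoter windows of 300 bases (250 before the start and 50 after it) were matched for 35 of the 44 members. CANNTG occurred in 20 of these windows (57.1%) and in 72.3% of all 32851 windows, and the E-box CAGCTG in 7 (20%), against 16.3%. AGGTCA, a single half-site of the elements that PPARγ and other nuclear receptors bind, occurred on either strand in 8 (22.9%), against 16.3% of all windows. The full PPARγ element was not searched. Every CAGCTG also counts as a CANNTG match. The letter run GGGCGG, which Sp1 binds, was in 22 (62.9%), against 35.7%. CCAAT was in 13 (37.1%), against 37.4%, and TATAAA in 5 (14.3%), against 13.6%. A match describes letters in the window and not a bound site.

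The libraries held between 15557950 and 22013354 fragments on genes, as recovered from the FPKM, the gene lengths and the mapped read pairs. Pparg itself read 5.10 to 7.56 FPKM on WT_0d, 3.12 to 4.59 on WT_5d, 28.0 to 46.4 on PPARγ/+_0d and 40.1 to 92.7 on PPARγ/+_5d, so the groups of each day did not overlap. WT_5d replicate 3 stood apart from the other WT_5d libraries, with 90.0 FPKM of the muscle factor Myog against 271 and 215, and values without it are given beside the results whose call or size it moved most. WT_0d replicate 2 had 15.7 FPKM of Myog against 2.69 and 1.47 in the other undifferentiated WT libraries. Myoblast and muscle genes, the 8 muscle markers, were detected in every group, with summed levels of 135 to 307, 962 to 4236, 61.9 to 97.6 and 1038 to 1223 FPKM on WT_0d, WT_5d, PPARγ/+_0d and PPARγ/+_5d.

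Collagen RNA took a larger share of the libraries on 5d than on 0d in both cell types. The 44 genes held 1.01% to 1.29% of the fragments on genes on WT_0d and 1.86% to 2.75% on WT_5d, where replicate 3 was the lowest library. In PPARγ/+ cells the share was 1.10% to 1.41% on 0d and 2.68% to 2.74% on 5d. The days did not overlap in either cell type, and on 5d the 3 PPARγ/+ libraries lay far closer together than the WT ones. Of the 44 members, 24 reached a group mean of 1 FPKM and 17 reached 10 FPKM, so most of this RNA came from few chains.

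Col3a1 alone, the chain of type III collagen, made up 17.3% to 20.4% of the summed collagen FPKM on WT_0d and 33.6% to 36.0% on WT_5d. In PPARγ/+ cells its share was 15.2% to 16.4% on 0d and 32.7% to 33.4% on 5d. By group mean it was the highest chain in every group except PPARγ/+_0d, where Col6a1, a chain of type VI, stood at 275 ± 36.9 FPKM (SD, n = 3) above Col3a1 at 197 ± 31.2. On WT_0d the order was Col3a1 (212 ± 36.7), Col6a1 (176 ± 46.7) and Col1a2 (153 ± 19.3), and these neighbours overlapped in their libraries. On WT_5d Col3a1 (808 ± 170.4) was followed by Col6a1 (419.8 ± 104) and Col1a2 (198 ± 31.3), with no overlap between them. On PPARγ/+_5d the same 3 chains read 885 ± 11.4, 602 ± 16.8 and 207 ± 10.2 FPKM, again without overlap.

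**Figure D1:**
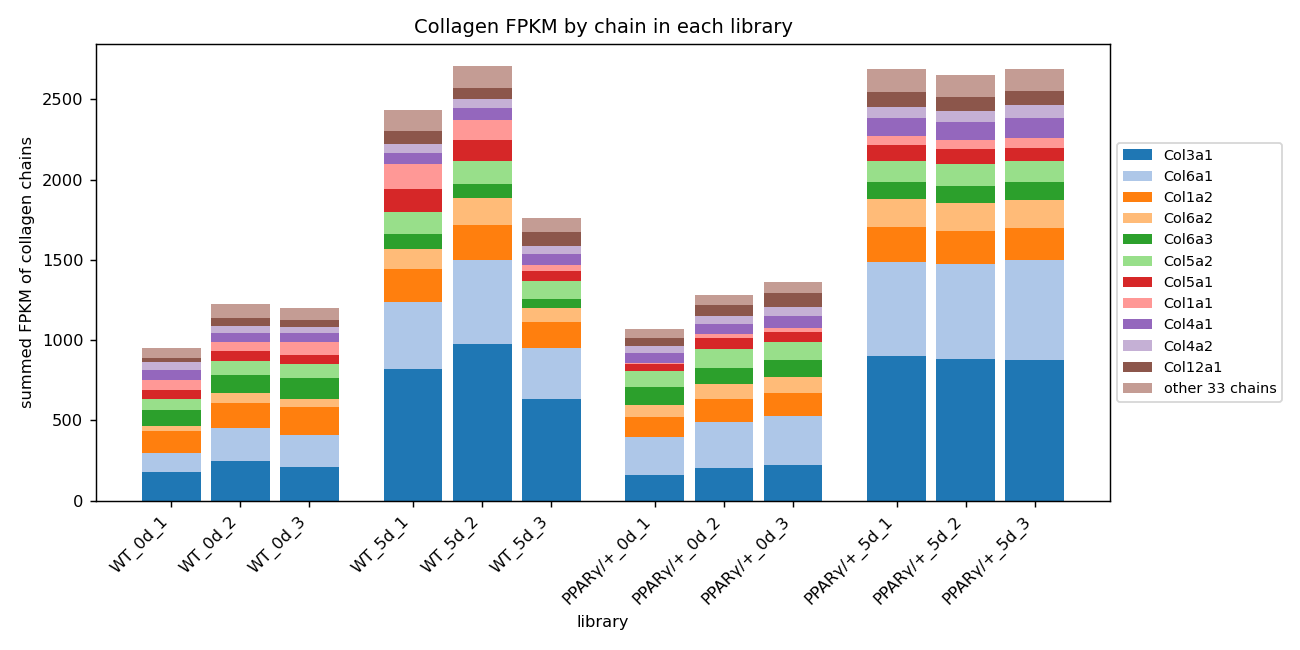
Summed FPKM of the collagen chains (y axis) in each of the 12 libraries (x axis), stacked by chain, with the 11 named chains apart and the other 33 together. Sums lie between 950.1 and 1226 FPKM on WT_0d, 1761 and 2709 on WT_5d, 1068 and 1363 on PPARγ/+_0d and 2654 and 2690 on PPARγ/+_5d, and the Col3a1 block at the base is the part that differs most between 0d and 5d.

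To ask which chains changed during differentiation, 5d was compared with 0d within each cell type by limma on log2(FPKM + 0.1), with a gene called at an unadjusted p of at most 0.05 and a change of at least 2-fold, the study's thresholds. Fold changes are on that scale, which understates the changes of low genes. Of the 44 chains, 35 passed the filter of 0.1 FPKM in at least 3 libraries. In WT cells 14 of these 35 were called, all higher on 5d (40%), against 16.5% of the 18023 genes tested in either direction with 8.94% called higher and 7.53% lower. In PPARγ/+ cells 14 were called, 13 higher (37.1%) and 1 lower, against 15.2% of all genes in either direction with 9.11% called higher and 6.06% lower. The median log2 fold change of the 35 chains was 0.72 in WT and 0.81 in PPARγ/+ cells, where that of all genes was -0.08 and -0.10. Col13a1 and Col6a5 passed the filter only through 5d libraries and Col2a1 only through 0d libraries, so these 3 had to differ between the days and their calls are a description. Without them 12 of 32 chains were called in each cell type, all higher on 5d. The libraries of the days did not overlap for 23 chains in WT cells (65.7%), 19 higher and 4 lower, against 51.1% of all genes. In PPARγ/+ cells they did not overlap for 25 (71.4%), 23 higher and 2 lower, against 58.1%. These counts include Col6a5 and Col2a1 in both cell types and Col13a1 in WT cells, so they are in part a description too. Without WT_5d replicate 3, 16 chains were called in WT cells.

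The calls of the cell types come from separate libraries. Called higher in both were 8 chains, Col3a1, Col24a1, Col27a1, Col15a1, Col6a1, Col6a5, Col23a1 and Col8a2. Col6a5 passed the filter only through 5d libraries, so its rise in both is a description and not agreement between the cell types. Called only in WT cells were 6 chains (Col4a5, Col4a6, Col12a1, Col6a2, Col13a1 and Col10a1), and called only in PPARγ/+ cells were another 6 (Col1a1, Col5a3, Col6a4, Col8a1, Col28a1 and, lower, Col2a1). The shares of all genes called in both or in only 1 cell type were not counted. Whether these numbers are unusual for the chains therefore cannot be said. A call in only 1 cell type is not a difference between them, and of these 12 chains Col13a1 alone passed the test of the interaction described further on. Col13a1 and Col2a1 passed the filter through 1 day only, so their calls are a description too. Over the 35 chains the changes had the same sign in 27 (24 higher and 3 lower in both), with a Pearson r of 0.74 and a Spearman rho of 0.68 across genes, which are not independent replicates. These values include Col6a5, Col13a1 and Col2a1, which had the same sign in both cell types and passed the filter through 1 day only. They were not computed without these chains or over all genes, so they are a description.

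**Figure D2:**
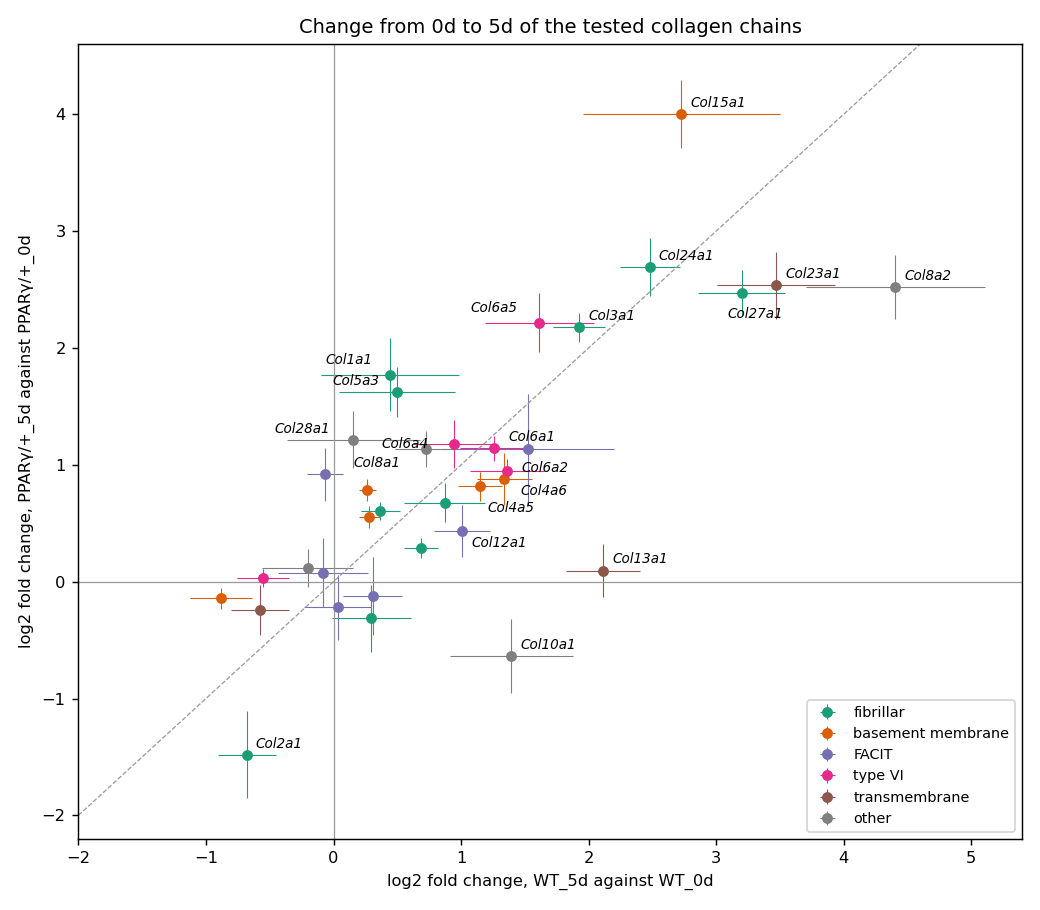
Log2 fold change from 0d to 5d on the log2(FPKM + 0.1) scale in WT cells (x axis) and PPARγ/+ cells (y axis) for the 35 tested chains, coloured by assembly. Bars are standard errors, the dashed line marks equal change, and names mark the chains called in either cell type. Most points lie above 0 on both axes, Col13a1 and Col10a1 lie to the right near or below 0 on the y axis, and Col1a1, Col5a3 and Col28a1 lie higher on the y axis than on the x axis.

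The fibrillar chains summed to 508 to 619.7 FPKM on WT_0d, 1017 to 1625 on WT_5d, 445 to 575 on PPARγ/+_0d and 1381 to 1437 on PPARγ/+_5d. Of the 11 fibrillar chains 10 were tested, of which 3 rose in WT cells, and 5 rose and 1 fell in PPARγ/+ cells. Of all genes 8.94% were called higher in WT cells, and 9.11% higher and 6.06% lower in PPARγ/+ cells. The chain that fell, Col2a1, passed the filter only through 0d libraries. Col3a1 (ENSMUSG00000026043, chr1:45311538-45349706, plus strand) encodes the chain of type III collagen, which forms thin fibres in extensible tissues. It read 177, 249.8 and 208 FPKM on WT_0d and 817, 974 and 634 on WT_5d, and 163, 206 and 223 on PPARγ/+_0d and 899, 879.6 and 878 on PPARγ/+_5d. Every 5d library lay above every 0d library of either cell type. Col3a1 rose by 1.93 ± 0.20 (log2 fold change ± SE, adjusted p = 0.00104) in WT and by 2.18 ± 0.12 (adjusted p = 4.4e-05) in PPARγ/+ cells, 3.80-fold and 4.52-fold. Its exons share 141 bases with Gm47302 on the same strand, whose reads cannot be told apart there. Its neighbour Col5a2, a chain of type V that lies tail to tail with it 24614 bases away, read 69.4, 85.7 and 84.0 FPKM on WT_0d, 136, 140.4 and 109.5 on WT_5d, 97.8, 122 and 111 on PPARγ/+_0d and 136, 138 and 128 on PPARγ/+_5d. For Col5a2 the days did not overlap in either cell type, but its log2 fold changes of 0.69 ± 0.13 and 0.29 ± 0.09 were under the 2-fold threshold.

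Type I collagen, the main protein of tendon and bone, is built of the chains Col1a1 and Col1a2. Col1a1 (chr11:94936224-94953042, plus strand) read 65.2, 52.7 and 76.0 FPKM on WT_0d and 151, 125 and 34.8 on WT_5d. In PPARγ/+ cells it read 10.2, 24.1 and 23.0 on 0d and 61.04, 59.8 and 62.7 on 5d. WT_5d replicate 3 lay below all WT_0d libraries, so the WT days overlapped, while the PPARγ/+ days did not. Col1a1 rose in PPARγ/+ cells by 1.77 ± 0.31 (adjusted p = 0.00362). In WT cells its log2 fold change was 0.44 ± 0.54 (adjusted p = 0.56), and without WT_5d replicate 3 it was 1.10 (adjusted p = 0.0083), which is called. Col1a2, on chromosome 6, read 134, 152 and 172 FPKM on WT_0d, 210.1, 221 and 162 on WT_5d, 124, 145 and 141 on PPARγ/+_0d and 218, 206 and 198 on PPARγ/+_5d. Its log2 fold changes were 0.37 in WT and 0.60 ± 0.08 in PPARγ/+ cells, both under 2-fold. The FPKM of Col1a1 per FPKM of Col1a2 was therefore 0.347 to 0.488 on WT_0d, 0.215 to 0.719 on WT_5d, 0.0824 to 0.167 on PPARγ/+_0d and 0.280 to 0.317 on PPARγ/+_5d. The 2 chains of type I thus did not keep a fixed ratio, and the lowest ratios of all were those of PPARγ/+_0d.

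Type V chains nucleate the fibrils of type I. Col5a1 read 51.8, 65.96 and 58.6 FPKM on WT_0d, 145, 134 and 63.3 on WT_5d, 42.8, 67.3 and 63.0 on PPARγ/+_0d and 93.8, 93.6 and 84.1 on PPARγ/+_5d. The log2 fold changes of Col5a1 were 0.87 ± 0.32 and 0.67 ± 0.17, and without WT_5d replicate 3 that of WT cells was 1.25 and was called. Its exons overlap those of Gm13372 and 2810430I11Rik on the other strand by 113 and 99 bases, and the library kit does not mark strand. Col5a3, the rarer type V chain, read 9.78, 12.1 and 9.48 FPKM on WT_0d, 20.7, 22.7 and 6.72 on WT_5d, 4.10, 7.13 and 7.34 on PPARγ/+_0d and 18.1, 18.3 and 19.5 on PPARγ/+_5d. It rose in PPARγ/+ cells by 1.62 ± 0.21 (adjusted p = 0.00108). In WT cells the log2 fold change was 0.50 ± 0.46 and, without replicate 3 of WT_5d, 1.06, past the threshold. Col1a1, Col5a1 and Col5a3 thus shared the pattern of a low WT_5d replicate 3.

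Col24a1 and Col27a1, fibrillar chains known from developing bone and cartilage, were low on 0d. Col24a1 read 0.0812, 0.135 and 0.142 FPKM on WT_0d, 0.922, 1.10 and 1.35 on WT_5d, 0.118, 0.111 and 0.264 on PPARγ/+_0d and 1.61, 1.54 and 1.52 on PPARγ/+_5d. It rose by 2.48 ± 0.24 in WT (adjusted p = 0.000746) and by 2.69 ± 0.25 in PPARγ/+ cells (adjusted p = 0.000244). Col27a1 read 0.289, 0.706 and 0.388 FPKM on WT_0d, 3.49, 6.52 and 4.89 on WT_5d, 1.10, 1.55 and 2.04 on PPARγ/+_0d and 8.74, 8.54 and 9.36 on PPARγ/+_5d. It rose by 3.20 ± 0.34 (adjusted p = 0.00105) and 2.47 ± 0.20 (adjusted p = 0.000157). For both genes no 0d library reached any 5d library of its cell type. Col2a1, the chain of cartilage fibrils, went the other way at a very low level, with 108, 42 and 33 fragments on PPARγ/+_0d and 6, 10 and 10 on PPARγ/+_5d, and it fell by 1.48 ± 0.37 on the log2 scale (adjusted p = 0.0161). It passed the filter only through 0d libraries, so the fall is a description. The call was lost with 1 added to the FPKM or with a filter at 1 FPKM. In WT cells it had 14 fragments in each 0d library and 5, 1 and 6 on 5d, with a log2 fold change of -0.68 ± 0.23. Col11a2 stayed between 0.371 and 1.25 FPKM in all libraries and was not called, and Col11a1 was under the filter, with 8 to 88 fragments.

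**Figure D3:**
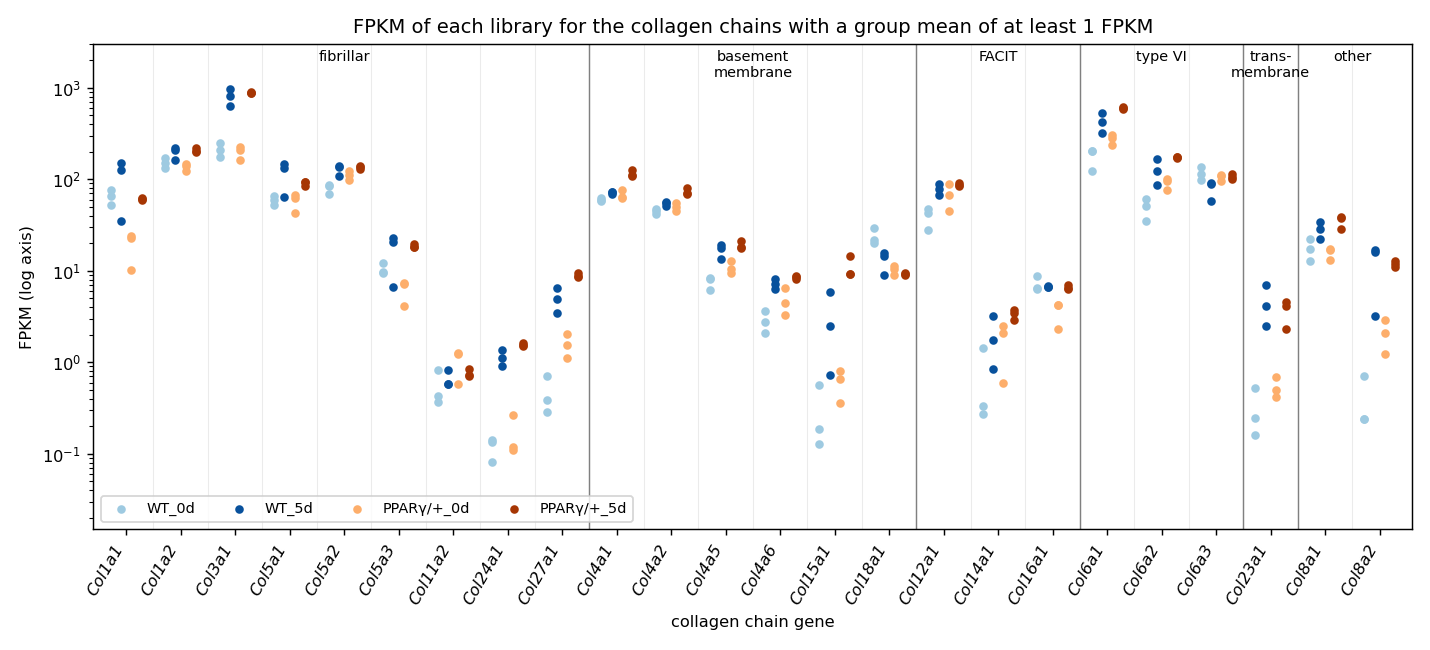
FPKM of each library (log axis) for the 24 chains with a group mean of at least 1 FPKM, grouped by assembly, with 4 columns of 3 points per gene for WT_0d, WT_5d, PPARγ/+_0d and PPARγ/+_5d. Col3a1 and Col6a1 are the highest on 5d, Col8a2, Col15a1, Col23a1, Col24a1 and Col27a1 lie in low columns on 0d and high ones on 5d, and Col18a1 is higher on WT_0d than in the other groups.

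The basement membrane chains summed to 132 to 146 FPKM on WT_0d, 150.1 to 175 on WT_5d, 135 to 158 on PPARγ/+_0d and 224 to 254 on PPARγ/+_5d. Of 8 chains 6 were tested, and 3 rose in WT and 1 in PPARγ/+ cells, against 8.94% and 9.11% of all genes called higher. Col4a1 (chr8:11198423-11312826, minus strand) read 61.6, 58.6 and 58.1 FPKM on WT_0d, 72.9, 71.7 and 69.7 on WT_5d, 61.8, 63.5 and 75.4 on PPARγ/+_0d and 111, 109 and 124 on PPARγ/+_5d. Its partner Col4a2 (chr8:11312805-11449287, plus strand) read 47.1, 45.2 and 41.3, then 56.5, 55.3 and 50.6, then 44.6, 49.6 and 55.3, and on PPARγ/+_5d 68.9, 70.3 and 79.6 FPKM. Neither was called, with log2 fold changes of 0.27 ± 0.07 and 0.28 ± 0.08 in WT and 0.78 ± 0.09 and 0.55 ± 0.10 in PPARγ/+ cells, although the days did not overlap in any of these comparisons. The ratio of Col4a1 to Col4a2 was 1.30 to 1.41 on WT_0d, 1.29 to 1.38 on WT_5d and 1.28 to 1.38 on PPARγ/+_0d, and 1.56 to 1.60 on PPARγ/+_5d, above every other library.

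Col4a5 and Col4a6, minor type IV chains whose genes lie head to head on the X chromosome with their starts 1308 bases apart, were called in WT cells. Col4a5 read 6.20, 8.05 and 8.35 FPKM on WT_0d, 19.3, 17.8 and 13.6 on WT_5d, 12.6, 9.37 and 10.5 on PPARγ/+_0d and 21.3, 18.0 and 17.9 on PPARγ/+_5d. It rose by 1.15 ± 0.17 in WT cells (adjusted p = 0.00352), and its log2 fold change in PPARγ/+ cells was 0.81 ± 0.12. Col4a6 read 2.09, 3.66 and 2.78, then 7.09, 8.20 and 6.34 FPKM in WT cells, and 6.47, 3.27 and 4.46, then 8.82, 8.50 and 8.11 in PPARγ/+ cells. It rose by 1.34 ± 0.21 in WT cells (adjusted p = 0.00437), with a log2 fold change of 0.88 ± 0.22 in PPARγ/+ cells. No 0d library reached a 5d library of its own cell type for either gene. The third pair of the family, Col4a3 and Col4a4 of the kidney glomerulus, had at most 13 fragments in any library and was not tested.

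Col15a1 and Col18a1, the multiplexin chains of basement membranes, differed in their course. Col15a1, which muscle and fat cells are known to deposit, read 0.187, 0.562 and 0.129 FPKM on WT_0d and 2.46, 5.92 and 0.719 on WT_5d. In PPARγ/+ cells it read 0.807, 0.356 and 0.649 on 0d and 9.30, 9.16 and 14.5 on 5d. It rose by 2.73 ± 0.77 in WT (adjusted p = 0.0338) and by 4.0 ± 0.29 in PPARγ/+ cells (adjusted p = 0.000109), which is 16.0-fold. Without WT_5d replicate 3 the WT log2 fold change was 3.48. The PPARγ/+_5d libraries all lay above the WT_5d libraries, and replicate 3, the highest, was also the library with the most Pparg (92.7 FPKM) and with 40.5 FPKM of the fat cell hormone Adipoq against 8.03 and 12.7. Whether these values bear on Col15a1 was not tested. Col18a1, the source of endostatin, read 20.0, 29.6 and 21.7 FPKM on WT_0d, 14.3, 15.7 and 9.05 on WT_5d, 10.4, 8.997 and 11.4 on PPARγ/+_0d and 9.22, 8.96 and 9.51 on PPARγ/+_5d. Its log2 fold changes from 0d to 5d were -0.88 ± 0.24 in WT, under 2-fold, and -0.14 in PPARγ/+ cells. Col15a1 per Col18a1 was 0.00594 to 0.0190 on WT_0d, 0.0795 to 0.377 on WT_5d, 0.0396 to 0.0779 on PPARγ/+_0d and 1.01 to 1.53 on PPARγ/+_5d.

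FACIT chains, which sit on fibrils and set their spacing, numbered 9, of which 6 were tested. In WT cells 1 rose, against 16.5% of all genes called, and none was called in PPARγ/+ cells, against 15.2%. In PPARγ/+ cells limma gave 1 (Col16a1) with an unadjusted p of at most 0.05 but under 2-fold. The share of all genes at that p alone was not counted. Col12a1, a chain of tendon and muscle connective tissue, read 27.6, 47.7 and 42.3 FPKM on WT_0d, 77.3, 66.7 and 88.0 on WT_5d, 45.5, 67.5 and 89.2 on PPARγ/+_0d and 91.0, 85.1 and 86.9 on PPARγ/+_5d. It rose in WT cells by 1.01 ± 0.22 (adjusted p = 0.0132), and without WT_5d replicate 3 or without WT_0d replicate 1 the log2 fold changes of 0.91 and 0.77 were under the threshold. Its PPARγ/+ days overlapped, with a log2 fold change of 0.43. Col14a1, which binds fibrils through decorin, varied widely among libraries of a group, from 0.272 to 1.44 FPKM on WT_0d, with the highest value in replicate 2, and from 0.845 to 3.24 on WT_5d. In PPARγ/+ cells it read 0.590, 2.07 and 2.48 on 0d and 3.42, 3.73 and 2.92 on 5d, and its log2 fold changes of 1.53 ± 0.68 and 1.13 ± 0.48 were not called. Col16a1 read 6.27 to 8.75 FPKM in the WT libraries of both days, 2.30, 4.18 and 4.24 on PPARγ/+_0d and 6.92, 6.39 and 6.51 on PPARγ/+_5d, with a log2 fold change of 0.92 ± 0.23 in PPARγ/+ cells, just under 2-fold. Col9a3, Col20a1 and Col22a1 stayed under 0.35 FPKM in every library.

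Type VI chains form the beaded filaments around muscle fibres, and mutations in their genes cause muscular dystrophies. Their summed level was 256 to 387 FPKM on WT_0d, 463 to 781 on WT_5d, 422 to 515 on PPARγ/+_0d and 867 to 911 on PPARγ/+_5d. Of 5 tested chains 3 rose in each cell type, against 8.94% of all genes in WT and 9.11% in PPARγ/+ cells. In each cell type Col6a5 is among these 3. It passed the filter only through 5d libraries, so its rise is a description. Col6a1 (chr10:76708792-76726168, minus strand) read 122, 205 and 201 FPKM on WT_0d, 418.9, 524 and 317 on WT_5d, 235, 283 and 307 on PPARγ/+_0d and 589.9, 595 and 621 on PPARγ/+_5d. It rose by 1.26 ± 0.27 in WT (adjusted p = 0.0122) and by 1.14 ± 0.11 in PPARγ/+ cells (adjusted p = 0.000289). Col6a2, 85161 bases away on the same strand, read 34.5, 60.9 and 50.5 FPKM on WT_0d, 124, 167 and 86.9 on WT_5d, 76.8, 95.9 and 99.6 on PPARγ/+_0d and 171, 176 and 176 on PPARγ/+_5d. It rose by 1.36 ± 0.29 in WT cells (adjusted p = 0.0131), and in PPARγ/+ cells its log2 fold change of 0.95 ± 0.10 was just under the threshold. The ratio of Col6a1 to Col6a2 stayed between 2.95 and 3.98 in all 12 libraries.

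Col6a3, the largest type VI chain, did not follow them. It read 99.0, 113 and 135 FPKM on WT_0d and 91.8, 89.0 and 58.5 on WT_5d, where all libraries were lower, and 110.3, 95.4 and 108 on PPARγ/+_0d and 106, 101 and 113 on PPARγ/+_5d, where they overlapped. Its log2 fold changes were -0.55 ± 0.20 and 0.03, and neither was called. Col6a1 per Col6a3 was 1.24 to 1.81 on WT_0d and 4.56 to 5.89 on WT_5d, and 2.13 to 2.97 and 5.50 to 5.86 in PPARγ/+ cells. Of the chains Col6a4, Col6a5 and Col6a6, which lie in a row on chromosome 9, Col6a5 rose in both cell types, from 0, 9 and 5 to 26, 96 and 58 fragments in WT and from 6, 7 and 15 to 132, 121 and 73 in PPARγ/+ cells, by log2 fold changes of 1.61 ± 0.43 and 2.21 ± 0.25. No 0d library of Col6a5 reached the filter, and its calls were lost with 1 added to the FPKM or with a filter at 1 FPKM. Col6a4 rose in PPARγ/+ cells from 12, 14 and 19 to 54, 49 and 48 fragments (log2 fold change 1.18 ± 0.21, adjusted p = 0.00373), and in WT cells went from 6, 12 and 17 to 26, 31 and 67 with a log2 fold change of 0.95 ± 0.32. Its exons overlap those of Gm47575 and Gm36993 on the other strand by 162 and 127 bases. Col6a6 had at most 2 fragments in any library.

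The transmembrane chains Col13a1, Col17a1, Col23a1 and Col25a1 span the cell surface membrane, and their summed level stayed at or under 7.43 FPKM. Col13a1 (chr10:61838236-61979108, minus strand), a component of the neuromuscular junction, had 0 fragments in all 6 libraries of 0d in both cell types. On WT_5d it had 47, 39 and 21 fragments and on PPARγ/+_5d 1, 1 and 0. It passed the filter only through the WT_5d libraries. With a floor of 3 fragments in each library, its mean FPKM was at least 11.9-fold higher on WT_5d than on WT_0d and at least 10.7-fold lower on PPARγ/+_5d than on WT_5d. Col25a1, under the filter, had a like distribution, with 1, 0 and 0 fragments on WT_0d, 41, 20 and 3 on WT_5d, 1, 0 and 0 on PPARγ/+_0d and 2, 1 and 0 on PPARγ/+_5d, which gives at least 6.89-fold and 6.23-fold, and WT_5d replicate 3 is at the floor itself. Col25a1 is known to act in the innervation of muscle. Col23a1 rose in both cell types. It read 0.162, 0.518 and 0.248 FPKM on WT_0d, 2.48, 4.07 and 7.004 on WT_5d, 0.414, 0.501 and 0.695 on PPARγ/+_0d and 4.56, 4.13 and 2.33 on PPARγ/+_5d, with log2 fold changes of 3.47 ± 0.46 (adjusted p = 0.0023) and 2.53 ± 0.29 (adjusted p = 0.000563). Unlike Col13a1 and Col25a1, it was highest in replicate 3 of WT_5d. Col17a1, the hemidesmosome chain of skin, lay between 0.129 and 0.502 FPKM and was lower on 5d without overlap in both cell types, by log2 fold changes of -0.58 and -0.24 that were not called.

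Among the remaining chains, Col8a1 and Col8a2 build the short-chain network of type VIII. Col8a2 read 0.241, 0.715 and 0.241 FPKM on WT_0d, 16.0, 16.7 and 3.22 on WT_5d, 1.24, 2.09 and 2.91 on PPARγ/+_0d and 11.8, 12.7 and 10.9 on PPARγ/+_5d. It rose by 4.40 ± 0.70 in WT cells (adjusted p = 0.0044), 21.2-fold, the largest called rise among the chains in WT cells, and by 2.52 ± 0.27 in PPARγ/+ cells (adjusted p = 0.000475). Without WT_5d replicate 3 the WT value was 5.17. Col8a1 read 12.7, 22.2 and 17.2 FPKM on WT_0d, 34.1, 28.7 and 22.3 on WT_5d, 13.0, 17.0 and 17.3 on PPARγ/+_0d and 38.4, 37.3 and 28.5 on PPARγ/+_5d. It rose in PPARγ/+ cells by 1.13 ± 0.15 (adjusted p = 0.00117), with a log2 fold change of 0.72 ± 0.24 in WT cells. Col10a1, the chain of growth plate cartilage, had 5, 3 and 4 fragments on WT_0d, 33, 36 and 7 on WT_5d, 23, 24 and 7 on PPARγ/+_0d and 6, 8 and 6 on PPARγ/+_5d. Its rise of 1.39 ± 0.48 in WT cells had an adjusted p of 0.0642 and was called by the unadjusted p, and that call was lost when any library other than WT_5d replicate 3 was left out. Without that library the log2 fold change was 1.93 (adjusted p = 0.00478). Col28a1 rose in PPARγ/+ cells from 13, 21 and 23 to 40, 63 and 48 fragments (log2 fold change 1.21 ± 0.24), while WT_0d ranged from 3 to 57 fragments. Col7a1 of skin anchoring fibrils lay between 0.418 and 1.22 FPKM and was not called.

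The 9 chains under the filter were Col11a1, Col4a3, Col4a4, Col9a1, Col9a2, Col19a1, Col6a6, Col25a1 and Col26a1. Col9a1 is listed at 0 in every library, and Col9a2, its partner in cartilage, had at most 3 fragments. Col26a1 had 0 fragments in all 0d libraries, 14, 9 and 3 on WT_5d and 0, 0 and 1 on PPARγ/+_5d, at least 2.85-fold higher on WT_5d than on WT_0d and at least 2.58-fold lower on PPARγ/+_5d than on WT_5d. For Col19a1, with 4, 3 and 6 fragments on WT_5d and 0 to 2 in the other groups, these bounds were 1.43 and 1.29. At these depths a chain at or under 3 fragments in a library cannot be told from background.

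To ask whether the cell types differed before differentiation, PPARγ/+_0d was compared with WT_0d, with a gene called at a Benjamini-Hochberg adjusted p of at most 0.05 over all genes and 2-fold. Col18a1 was the only chain called, lower in PPARγ/+ cells by a log2 fold change of -1.19 ± 0.17 (adjusted p = 0.025), 1 of 35 (2.86%), against 1.59% of all genes in either direction with 0.361% called higher and 1.23% lower. The call was lost when any of the 6 libraries was left out, with a log2 fold change between -1.31 and -1.02. Next to the threshold, Col1a1 was lower by -1.83 ± 0.35 (adjusted p = 0.0509), with 10.2 to 24.1 FPKM against 52.7 to 76.0. Col8a2 was higher by 2.18 ± 0.46 (adjusted p = 0.0622) and Col27a1 by 1.60 ± 0.35 (adjusted p = 0.0659), each without overlap of the libraries. Libraries did not overlap for 15 of the 35 chains (42.9%), 9 higher and 6 lower in PPARγ/+ cells, against 26.8% of all genes. The higher ones included Col6a1, Col6a2, Col5a2 and Col4a5, and the lower ones Col1a1, Col5a3, Col16a1 and Col18a1. The median log2 difference over the 35 chains was 0.24 and over all genes 0.02.

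On 5d no chain was called between PPARγ/+ and WT cells by limma, against 0.155% of all genes, with 0.0943% called higher and 0.061% lower. At an unadjusted p of at most 0.05 with 2-fold there were 3, against 3.36% of all genes, Col15a1 and Col28a1 higher and Col13a1 lower. Col13a1 passed the filter only through WT_5d libraries, so its values on 5d, with or without WT_5d replicate 3, are a description. Col4a1 was higher by 0.68 ± 0.07 with an adjusted p of 0.0499, which is 1.60-fold and under the fold threshold. Col15a1 was higher by 2.22 ± 0.71 (adjusted p = 0.304), or by 1.47 without WT_5d replicate 3 (adjusted p = 0.099), and Col28a1 by 1.01 ± 0.21 (adjusted p = 0.155). Col3a1 differed by 0.15 and Col1a2 by 0.08, less than the spread of their WT_5d libraries. Libraries did not overlap for 12 chains (34.3%), 10 higher and 2 lower in PPARγ/+ cells, against 18.5% of all genes. Col13a1, among the lower ones, had to differ because of the filter. Col2a1, among the higher ones, reached the filter in no 5d library. The count is therefore in part a description. Without WT_5d replicate 3, 3 chains were called, all lower in PPARγ/+ cells, against 4.01% of all genes: Col1a1 (-1.16, adjusted p = 0.00736), Col10a1 (-1.55, adjusted p = 0.0221) and Col13a1 (-2.28, adjusted p = 0.00735). The test on 5d thus depends on that library, whose muscle markers were also the lowest of WT_5d, and the part of either in the result was not tested.

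The interaction of cell type and day, fitted over all 12 libraries, asked whether WT and PPARγ/+ cells changed unequally. Col13a1 was the only chain called, at -2.02 ± 0.37 on the log2 scale (adjusted p = 0.0385), 1 of 35 against 0.76% of all genes. Without the 3 chains that passed the filter through 1 day only, 0 of 32 were called. Col13a1 passed it only through WT_5d libraries, so the cell types had to change unequally and its value is a description. Since 0 fragments were found on 0d, the size of this value depends on the 0.1 added to the FPKM, and it is -0.41 with 1 added and -4.40 with 0.01, no longer called under either. It was also lost when any library other than WT_5d replicate 3 was left out. At an unadjusted p of at most 0.05 there were 8 chains, against 12% of all genes, Col13a1, Col4a1 (0.51 ± 0.12), Col16a1 (0.99 ± 0.29), Col10a1 (-2.03 ± 0.61), Col18a1 (0.74 ± 0.28), Col6a3 (0.58 ± 0.23), Col5a2 (-0.40 ± 0.17) and Col8a2 (-1.88 ± 0.81). Without WT_5d replicate 3, Col13a1 (-2.28, adjusted p = 0.00718), Col10a1 (-2.56, adjusted p = 0.0158) and Col8a2 (-2.65, adjusted p = 0.027) were called, against 2.92% of all genes. The interactions of the abundant chains Col3a1 (0.25), Col6a1 (-0.12) and Col1a2 (0.23) were not called. Col1a1 had 1.33 with an adjusted p above the threshold, and 0.67 without that library.

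**Figure D4:**
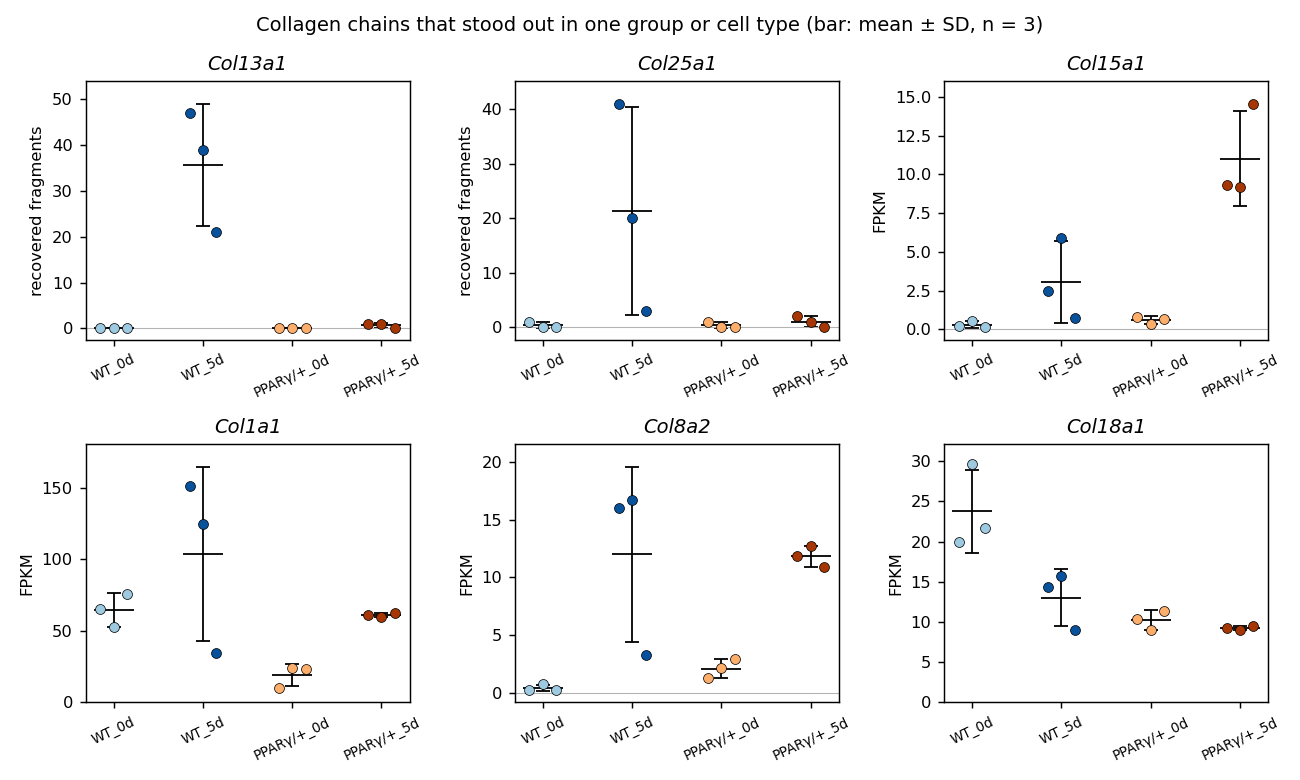
Recovered fragments (Col13a1 and Col25a1) or FPKM (Col15a1, Col1a1, Col8a2 and Col18a1) in each library (points) by group (x axis), with the mean and SD of 3 libraries as bars and y axes that include 0. Col13a1 and Col25a1 rise above a few fragments only on WT_5d, Col15a1 is highest on PPARγ/+_5d, WT_5d replicate 3 is the lowest WT_5d point in every panel, and Col18a1 is highest on WT_0d.

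Genes that act on collagen chains were followed from lists drawn up with earlier results of these data known, and their counts stand beside 8.94% of all genes called higher on 5d in WT and 9.11% in PPARγ/+ cells, and 7.53% and 6.06% called lower. Of 15 genes for chain modification 14 were tested, of which 3 rose in WT and 2 in PPARγ/+ cells. P3h2 and P3h3, which hydroxylate proline, rose in both, by 2.11 ± 0.19 and 1.44 ± 0.18 in WT and by 1.87 ± 0.25 and 1.20 ± 0.06 in PPARγ/+ cells, and P4ha1, a subunit of the prolyl hydroxylase that stabilises the helix, rose by 1.08 ± 0.15 in WT cells from 28.7, 36.2 and 29.2 to 76.0, 69.5 and 55.0 FPKM. Of 9 chaperone and export genes only Tmem38b, a channel of the endoplasmic reticulum, rose, by 1.74 ± 0.32 and 1.28 ± 0.09. Serpinh1, the collagen chaperone, lay between 286 and 448 FPKM in every library and was not called in either cell type.

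Of 8 genes for propeptide removal 6 were tested. Adamts2, which trims the amino end of fibrillar chains, rose in both cell types by 1.86 ± 0.19 and 2.01 ± 0.17, Adamts14 rose in WT cells by 1.25 ± 0.41 (1.75 without WT_5d replicate 3), and Pcolce2, an enhancer of the trimming at the other end, fell by 2.14 and 1.26 on the log2 scale. Among the 5 cross-linking oxidases Loxl1 rose by 1.06 ± 0.19 and 1.29 ± 0.15 and Loxl2 fell by 1.18 in WT cells, a call lost without WT_5d replicate 3 (-0.71). Loxl2 was also the only gene of these lists called between the cell types on 0d, at -1.76 ± 0.21 in PPARγ/+ cells (adjusted p = 0.0212). Of 9 receptors 6 were tested and 4 rose in both cell types. The integrin chains Itga10 and Itga11 led, by 3.60 ± 0.44 and 2.70 ± 0.40 in WT and by 2.61 ± 0.18 and 1.92 ± 0.40 in PPARγ/+ cells, and Mrc2, an uptake receptor for collagen, and Itga1 were the others, of which Itga1 was not called in WT cells without WT_5d replicate 3 (0.91). The receptor kinase Ddr2 had an interaction of 0.71 ± 0.13 (adjusted p = 0.0367), with 24.0, 23.8 and 24.5 FPKM on WT_0d, 24.0, 20.6 and 22.2 on WT_5d, 19.1, 16.2 and 20.1 on PPARγ/+_0d and 30.2, 25.7 and 27.7 on PPARγ/+_5d. The platelet and leukocyte receptors Gp6 and Lair1 were at or near 0.

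Of the marker lists of cell types, those of fibroblasts and muscle had most tested genes called between 0d and 5d in both cell types. That of adipocytes did so only in PPARγ/+ cells. Of all genes 8.94% were called higher and 7.53% lower in WT cells, and 9.11% and 6.06% in PPARγ/+ cells. Of 6 fibroblast markers 5 were tested and all 5 rose in both cell types, with summed levels of 11.8 to 41.6 FPKM on WT_0d, 247 to 404 on WT_5d, 9.41 to 16.1 on PPARγ/+_0d and 475 to 576 on PPARγ/+_5d. Dcn, the proteoglycan decorin that coats fibrils, rose by 4.25 ± 0.55 and 6.37 ± 0.30, while the defining surface marker Thy1 was at 0 in every library other than PPARγ/+_5d, where it reached 0.062 FPKM. Muscle markers rose in both, 6 of 8 in WT and 7 of 8 in PPARγ/+ cells, and 1 fell in WT cells. Of 7 adipocyte markers 5 were tested, of which 4 rose in PPARγ/+ cells and 0 in WT cells, with sums up to 0.107 FPKM in WT, 2.92 to 5.09 on PPARγ/+_0d and 13.3 to 67.6 on PPARγ/+_5d. Of 8 cartilage and bone markers 1, Comp, rose in both cell types, at up to 0.599 FPKM, with sums of 19.3 to 22.3, 16.0 to 26.6, 19.5 to 22.3 and 27.5 to 32.8 FPKM in the 4 groups. The 5 endothelial markers summed to at most 0.282 FPKM and the 4 Schwann cell markers to at most 0.684, and the macrophage markers to 2.96 to 8.07 FPKM, of which Lyz2 rose in both cell types. Their part in the collagen results was not tested.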

How the data were processed

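RNA of 12 C2C12 libraries (4 groups of 3) was measured by paired-end sequencing of TruSeq libraries. The authors trimmed the reads, aligned them with STAR, counted them on Ensembl genes and deposited FPKM per gene, the unit used here. A second deposited table of the same values on a log2 scale was not used. The submitters' processing notes name mm9 and the methods of the study GRCm38, and positions here are those of GRCm38. No column was left out. Members and gene lists were chosen with earlier results of these data known, and every member is accounted for. Named with values are chains called in any comparison, the chains of types I, III, IV, V and VI and all that reach 1 FPKM, and of the lists the called genes with the most extreme changes. Library totals came from the study's table of mapped reads. Fragments recovered as FPKM times exonic length times mapped pairs were whole within 0.01 for 21224 genes with the annotated and 5914 with an inferred length (34 and 9 of the members). Depth was 15557950 to 22013354 fragments, and the floors (3 fragments) cover counting error only. The SD and SE values come from the spread between libraries. limma 3.58.1 (empirical Bayes with a trend, R 4.3.3) was fitted to log2(FPKM + 0.1) of 18023 genes with at least 0.1 FPKM in 3 libraries, on the 6 libraries of each comparison, and on all 12 for the interaction, with Benjamini-Hochberg adjustment. The fit was tested on simulated data. Alternatives were other pseudocounts, filters and scalings, all libraries fitted together, other p-values, a replicate block and leaving out each library. Python 3.11.15 was used with pandas 2.3.3 and, for drawing, matplotlib 3.10.9.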

Additional observations from a re-analysis of the deposited data

Results flagged for a closer look

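Col13a1 stood out because WT and PPARγ/+ cells changed unequally, with an interaction of -2.02 on the log2 scale (limma, adjusted p = 0.0385). The log2 fold change on 5d was 2.11 in WT and 0.09 in PPARγ/+ cells. The values rest on 47, 39 and 21 fragments on WT_5d and 1, 1 and 0 on PPARγ/+_5d, with 0 in every 0d library. The gene passed the filter only through WT_5d, so it had to differ and the value is a description. The call was lost with 1 or 0.01 added to the FPKM, with the replicate block, with a filter at 1 FPKM and when any library other than WT_5d replicate 3 was left out.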

How the results depend on the processing

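In WT cells the 14 chains called between 0d and 5d became 9 with 1 added to the FPKM in place of 0.1, where Col24a1, Col12a1, Col10a1, Col13a1 and Col6a5 were lost, became 11 of 23 with a filter at 1 FPKM, which left out Col10a1, Col13a1 and Col6a5, and were 12 to 16 when a library was left out. All genes called in WT cells went from 16.5% to 8% with 1 added and 16.2% with that filter. Without a library they were 15.3% to 17%. In PPARγ/+ cells the 14 became 10 with 1 added, 11 of 23 with a filter at 1 FPKM (without Col28a1, Col2a1, Col6a4 and Col6a5 and with Col14a1), 18 with median-ratio scaling and 14 to 17 without a library. All genes called there went from 15.2% to 6.89% with 1 added, 14.7% with that filter and 15.4% with median-ratio scaling. Without a library they were 14.1% to 15.7%. Median-ratio scaling moved the median of all genes -0.08 becoming 0.02 in WT and -0.10 becoming 0.02 in PPARγ/+ cells. Before differentiation the 1 chain called between the cell types became 2 with 1 added, 0 with no filter, 4 with a filter at 1 FPKM, 2 with median-ratio scaling, 4 in a fit over all 12 libraries, 7 with the unadjusted p, and 0 to 1 without a library, where Col1a1 was called in place of Col18a1 without PPARγ/+_0d replicate 1. Over all genes 1.59% became 0.638%, 0.394%, 2.25%, 1.49%, 1.96%, 3.67% and 0.305% to 0.76% in the same order. On 5d the 0 called became 1 with 0.01 added, 1 in the fit over all 12 libraries, 3 with the unadjusted p, and 0 to 3 without a library. Over all genes 0.155% became 0.394%, 1.1%, 3.36% and 0.00555% to 4.01% in the same order. The 1 interaction became 0 with 1 added, 0 with 0.01 added, 0 with a filter at 1 FPKM, 8 with the unadjusted p, and 0 to 3 without a library, and without PPARγ/+_0d replicate 3 Col4a1 was called in place of Col13a1. Over all genes 0.76% became 0.743%, 0.533%, 0.838%, 12% and 0.233% to 2.92% in the same order. The cause of these shifts was not tested. Of 417 alternative values of the 30 called gene values, 378 kept direction and side of the threshold, 39 lost the call (24 of them on leaving out a library) and 0 reversed. Called chains that the filter at 1 FPKM left out gave no value there. Those lost calls are therefore not among the 417 or the 39.

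The labels number the replicates alike in each group, but nothing ties the numbers to a shared culture, and same-numbered libraries did not deviate together (r between -0.07 and 0.08 over 18023 genes). Between 0d and 5d in PPARγ/+ cells each library correlated best with its own number (r = 0.04, 0.08 and 0.03). With the replicate number as a block, the day comparisons called 15 chains in WT and 15 in PPARγ/+ cells, against 16.8% and 15.3% of all genes. Between the cell types this fit called 0 chains on 0d and 0 on 5d. It called 0 of all 18023 genes there, so these counts say nothing about the chains. In the interaction it called 0 chains, against 0.338% of all genes. Depth limits the rare chains: below 3 fragments per library only bounds could be given.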
